A study of Mus musculus with 6 samples.

Results

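Tubular calcium handling was described through 10 genes taken by symbol: the entry channels Trpv5 and Trpv6, the cytosolic buffers S100g, Calb1 and Pvalb, the extruders Slc8a1, Atp2b1 and Atp2b4, and the receptors Casr and Vdr. They are 10 of the 22180 genes measured through a transcript cluster (the array's set of probes for 1 transcript unit) with a single gene symbol, and each has 1 such cluster. The arrays are Affymetrix Mouse Gene 2.1 ST, 1 for each of 6 samples of adult mouse kidney. In the samples labelled dKO (n = 3, arrays 1, 3 and 5), mice homozygous for floxed Pax2 and Pax8 alleles carried the tamoxifen-inducible recombinase CreER at Rosa26, a locus active in most cell types. Controls (n = 3, arrays 2, 4 and 6) were Cre-negative. Tamoxifen went to both groups, at 50 mg/kg on 3 days in a row when the mice were 8 weeks old, with a repeat at 10 weeks, and kidneys were sampled 14 days after the last injection. The males are dKO 1 and control 4, and the other 2 arrays of each group are female. Strain and whether each array is a separate animal are not given in the labels, so p-values reflect only how far these samples spread, which may be technical. The series asked what changes in adult kidney RNA when Pax2 and Pax8 are lost.

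In the kidney most filtered calcium passes back between cells of the proximal tubule and thick ascending limb, and the final adjustment is made through cells of the distal convoluted and connecting tubules. There calcium enters from the lumen through the TRPV5 and TRPV6 channels, is carried and buffered in the cytosol by calbindins, and leaves on the blood side through the sodium-calcium exchanger NCX1 (Slc8a1) and plasma membrane calcium pumps (Atp2b genes). Active vitamin D acts through its receptor Vdr to raise several of these genes, and the calcium-sensing receptor Casr of the thick limb reports blood calcium.

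S100g was the 1 member that fell, and Trpv6 and Trpv5, whose genes lie side by side, are the luminal channels, so the 250 bases before the RefSeq start of each are shown (GRCm38.p6, minus strand, written 5′ to 3′ along the gene). Capitals mark AGGTCA, a hexamer that many nuclear receptors recognise, or its reverse complement, and TATAAA.
S100g (chrX:162964600-162964849): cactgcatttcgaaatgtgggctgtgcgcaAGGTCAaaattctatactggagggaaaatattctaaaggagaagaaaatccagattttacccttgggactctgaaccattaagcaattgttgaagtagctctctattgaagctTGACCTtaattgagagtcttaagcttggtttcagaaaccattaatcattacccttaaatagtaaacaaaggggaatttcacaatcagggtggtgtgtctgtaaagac
Trpv6 (chr6:41636406-41636655): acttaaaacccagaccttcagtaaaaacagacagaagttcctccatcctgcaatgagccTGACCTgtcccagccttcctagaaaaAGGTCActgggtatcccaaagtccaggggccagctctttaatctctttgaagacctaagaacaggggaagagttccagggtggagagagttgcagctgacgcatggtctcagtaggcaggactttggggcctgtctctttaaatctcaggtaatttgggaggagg
Trpv5 (chr6:41680724-41680973): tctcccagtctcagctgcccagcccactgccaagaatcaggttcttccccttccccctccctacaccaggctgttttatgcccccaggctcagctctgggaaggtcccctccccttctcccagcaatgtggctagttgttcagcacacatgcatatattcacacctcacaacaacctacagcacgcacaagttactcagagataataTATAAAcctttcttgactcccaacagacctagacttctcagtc
AGGTCA was searched on both strands. It occurred at -220 to -215 and -107 to -102 of S100g and at -191 to -186 and -165 to -160 of Trpv6, and 14.0% of 32851 windows of the same length hold it at least once and 1.36% at least 2 times. TATAAA lay at -43 to -38 of Trpv5 (12.4% of windows). In S100g it began at the annotated start itself, at 1 to 6, just beyond the stretch shown. The letters GCGTGAC, part of the sequence bound by the paired domain of PAX proteins, were in the window of none of the 9 member genes with an entry (1.78% of all windows hold them). The motifs did not overlap one another. These matches are a description of the letters.

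The targeted genes check the labels first. Pax8 was 2.58-fold higher on the arrays labelled dKO (limma adjusted p = 0.0037). Pax2 was also higher there, by 0.27 ± 0.10 on the log2 scale (SE, limma adjusted p = 0.19). Its groups did not overlap, but by a narrow margin (dKO 1 at 6.11, control 2 at 6.09). Which exons the deletion removes is not in the labels, and probes outside them check nothing, so every direction here is that of the arrays labelled dKO. Array medians over the tested genes lay between 4.56 and 4.70 log2, and pairs of arrays correlated across genes with Pearson's r of 0.979 to 0.995. Umod, uromodulin of the thick limb, read between 11.4 and 11.9 log2 on every array. Each array labelled dKO lay above each control (log2 fold change 0.31 ± 0.09, SE, limma adjusted p = 0.11). Ucp1, a brown fat gene, was high on controls 2 and 6 (7.77 and 7.53) and reached at most 5.12 on any other array, so the members' results are also given without those 2 controls.

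Of the 10 calcium genes, 1 fell and 3 rose on the arrays labelled dKO: S100g was 3.00-fold lower, and Trpv6, Pvalb and Casr were 1.57-fold, 1.43-fold and 1.27-fold higher. The other 6, Trpv5, Calb1, Slc8a1, Atp2b1, Atp2b4 and Vdr, did not pass. A gene passed where limma's p, adjusted by Benjamini-Hochberg over all 22180 genes, was under 0.05 in a model with genotype and sex. Of all genes 7.2% passed (4.12% higher, 3.08% lower), against 4 of 10 here, but the genes were chosen with results of these arrays known. The median log2 fold change of the 10 was 0.08, beside -0.01 over all genes. Groups did not overlap for 5 of the 10, beside 22.5% of all genes (11.7% with the arrays labelled dKO higher, 10.8% lower). In bulk RNA, fewer cells of a type and less RNA per cell cannot be told apart.

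**Figure D1:**
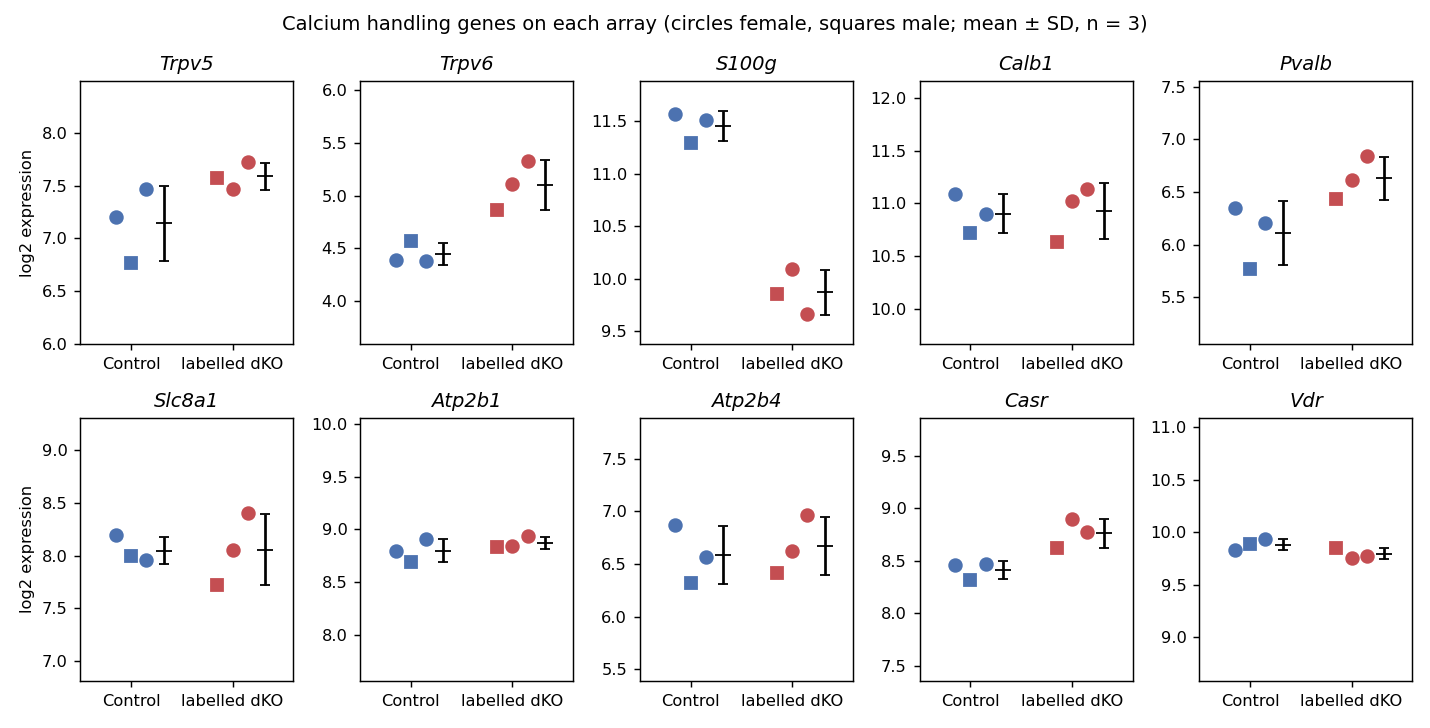
Log2 expression of the 10 calcium genes on each array, in panels of equal height, with controls in blue and arrays labelled dKO in red. Circles are females, squares the males (control 4 and dKO 1), and black bars the mean ± SD of 3 arrays. S100g lies between 9.67 and 10.09 on the arrays labelled dKO and between 11.29 and 11.56 on the controls.

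The channels come first along the path of calcium through the cell. Trpv6, the channel also known from intestine, stood at 4.86, 5.11 and 5.33 log2 on dKO 1, 3 and 5 and at 4.39, 4.57 and 4.38 on controls 2, 4 and 6. All 3 arrays labelled dKO lay above all 3 controls. The log2 fold change was 0.65 ± 0.13 (SE, adjusted p = 0.035). It was 0.29 between the male arrays and 0.83 between the female means, and the genotype by sex term did not pass (-0.54 ± 0.20, unadjusted p = 0.036, adjusted p = 0.68). The call was lost without control 2, control 6, dKO 3 or dKO 5 (adjusted p between 0.098 and 0.13).

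Trpv5, the main luminal calcium channel of the kidney, was measured at 7.57, 7.47 and 7.73 on dKO 1, 3 and 5 and at 7.21, 6.76 and 7.47 on controls 2, 4 and 6. The lowest array labelled dKO and control 6 both read 7.47, so the groups barely separate. The log2 difference of 0.44 ± 0.15 (SE) did not pass (adjusted p = 0.135), and its 95% interval ran from 0.09 to 0.80. Here the larger difference was in the males, 0.81 against 0.26 in the females, the opposite order to Trpv6, and the genotype by sex term did not pass (0.55 ± 0.25, adjusted p = 0.74).

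Among the buffers, S100g (calbindin-D9k, a small EF-hand protein of the S100 family) stood at 9.86, 10.09 and 9.67 log2 on dKO 1, 3 and 5 and at 11.56, 11.29 and 11.51 on controls 2, 4 and 6. The group means were 9.87 ± 0.21 and 11.46 ± 0.14 (SD, n = 3 each). The gap between the groups was wider than the spread within either. The log2 fold change was -1.58 ± 0.13 (SE, adjusted p = 0.0028), with a 95% interval from -1.89 to -1.28. It was -1.44 between the males and -1.66 between the female means, and the genotype by sex term was 0.22 ± 0.27 (adjusted p = 0.92). With any single array left out, it stayed between -1.68 and -1.44 and passed in 6 of 6 fits.

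Calb1 (calbindin-D28k, the larger EF-hand buffer of the distal convoluted and connecting tubules) read 10.63, 11.02 and 11.14 on dKO 1, 3 and 5 and 11.09, 10.72 and 10.90 on controls 2, 4 and 6. The groups overlapped, and in each the male array was the lowest. The log2 difference was 0.03 ± 0.09 (SE, adjusted p = 0.91; 95% interval -0.20 to 0.25), an interval that does not reach the value of S100g. Its sign turned to negative after median centring.

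Pvalb (parvalbumin, an EF-hand buffer of the early distal convoluted tubule and of fast muscle) was at 6.44, 6.61 and 6.84 on dKO 1, 3 and 5 and at 6.35, 5.77 and 6.21 on controls 2, 4 and 6. All arrays labelled dKO lay above the controls, dKO 1 by a margin smaller than the SD of either group. The log2 fold change was 0.52 ± 0.10 (SE, adjusted p = 0.033), 0.67 in the males and 0.45 in the females. It passed in 1 of the 6 fits with an array left out (without dKO 3), with adjusted p up to 0.12 in the others, and missed without sex in the model (0.19). Of 9 skeletal muscle genes 0 passed in the limma fit (1 at an unadjusted p under 0.05), and 0 had groups that did not overlap. Their mean lay between 3.21 and 3.34 log2 on the arrays labelled dKO and between 3.33 and 3.36 on the controls, with Acta1, skeletal actin, between 3.82 and 4.35 and Ckm, muscle creatine kinase, between 3.37 and 3.86.

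**Figure D2:**
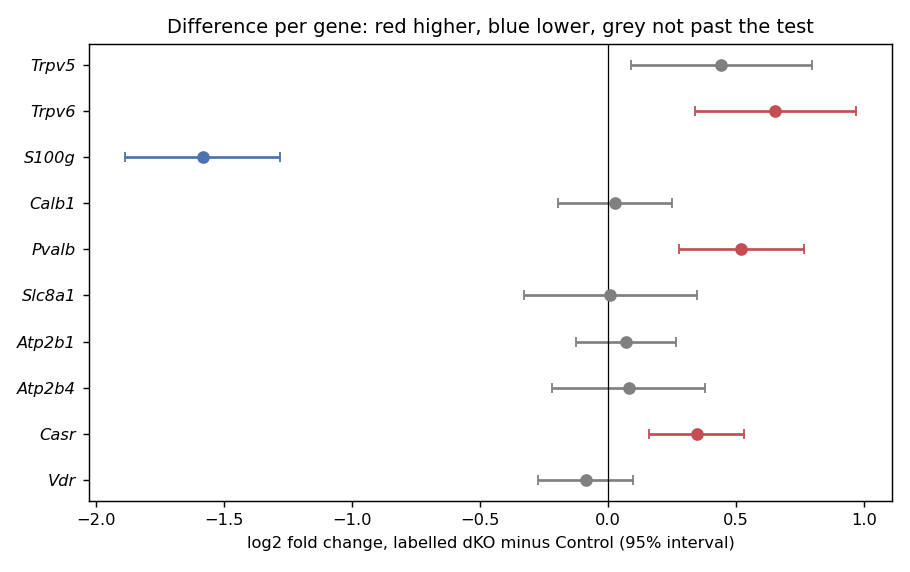
Log2 fold change of each calcium gene, arrays labelled dKO minus controls, adjusted for sex, with its 95% interval from limma. Red and blue mark genes past the test (higher and lower) and grey the rest. S100g at -1.58 stands apart from the other 9, which lie between -0.09 and 0.65.

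None of the 3 extruders passed, and the groups overlapped for each. Slc8a1 read 7.72, 8.05 and 8.40 on dKO 1, 3 and 5 and 8.19, 8.00 and 7.95 on controls 2, 4 and 6. Both the highest and the lowest array were labelled dKO, and the log2 difference was 0.01 ± 0.14 (SE, adjusted p = 0.98; 95% interval -0.33 to 0.35). Atp2b1, the widely expressed calcium pump PMCA1, spanned 8.83 to 8.93 on the arrays labelled dKO and 8.69 to 8.91 on the controls, a difference of 0.07 ± 0.08 (adjusted p = 0.69). Atp2b4, the pump PMCA4, spanned 6.42 to 6.97 and 6.32 to 6.87, a difference of 0.08 ± 0.13 (adjusted p = 0.77; 95% interval -0.22 to 0.38). The lowest Atp2b4 value of each group was the male array. The signs of Slc8a1 and Atp2b1 turned to negative after median centring.

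The receptors differed from each other. Casr, which senses extracellular calcium, stood at 8.62, 8.89 and 8.77 on dKO 1, 3 and 5 and at 8.46, 8.32 and 8.47 on controls 2, 4 and 6, with no overlap. Its log2 fold change of 0.35 ± 0.08 (SE) was just past the threshold (adjusted p = 0.049). The call was lost in 6 of 6 fits with an array left out (adjusted p between 0.11 and 0.16) and after median centring (0.092). Vdr, the nuclear receptor for active vitamin D, read 9.85, 9.75 and 9.78 on dKO 1, 3 and 5 and 9.83, 9.89 and 9.93 on controls 2, 4 and 6. The groups overlapped, with a difference of -0.09 ± 0.08 (adjusted p = 0.59; 95% interval -0.27 to 0.10).

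With controls 2 and 6 left out, control 4, a male, is the only control. The mean of the 3 arrays labelled dKO against it, with no sex term, gave log2 fold changes of -1.42 for S100g, 0.86 for Pvalb, 0.44 for Casr and 0.53 for Trpv6. Trpv5 stood at 0.83, Atp2b4 at 0.34, Calb1 at 0.21, Atp2b1 at 0.18, Slc8a1 at 0.06 and Vdr at -0.09. With the sex term kept, dKO 3 and 5 do not enter the value, and their difference alone gives the residual spread. The value is the male pair, dKO 1 minus control 4: -1.44 for S100g, 0.67 for Pvalb, 0.30 for Casr, 0.29 for Trpv6 and 0.81 for Trpv5. No gene of the 22180 passed by limma in either fit (1608 higher and 1263 lower at an unadjusted p under 0.05 without the sex term, 1256 and 1073 with it). Further on, genes of calcium, magnesium and segment lists are described. Among those that passed with all 6 arrays, Cyp24a1 (1.19), Anxa2 (0.95) and Bsnd (-0.44) moved by over 1.5 times without the sex term. In the male pair they were Slc5a12 (-0.84), Slc6a19 (-1.10), Trpv4 (-0.45), Cldn10 (-0.28) and Pth1r (-0.37), and each kept its sign. Genes of these lists that had not passed were left out of this comparison. Of those named below, Trpm6 (0.12) and Cldn16 (-0.02) turned sign in the male pair, and Cyp27b1 stood at 1.48 beside 0.40 with all arrays.

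Leaving out either male array gives the same estimates as the females alone, since the sex term then takes up the other male. The counts over the 6 fits with an array left out, here and below, therefore hold this same fit more than once. In that fit S100g and Trpv6 passed (adjusted p = 0.0067 and 0.018) and Pvalb and Casr did not (both 0.11).

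**Figure D3:**
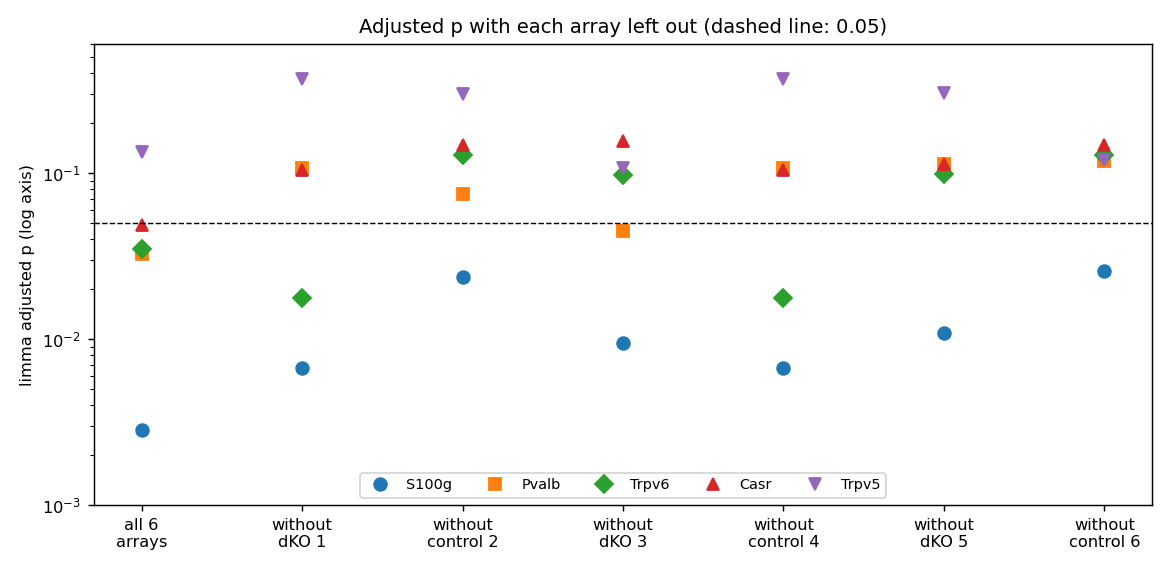
Limma adjusted p (log axis) of S100g, Pvalb, Trpv6, Casr and Trpv5 with all 6 arrays and with each array left out. The dashed line is the threshold of 0.05: S100g lies below it in every fit, Trpv5 in none, Pvalb in 1 of the 6 with an array left out, Trpv6 in 2 and Casr in 0.

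By sex, 9 of the 10 genes were lower in the males, Vdr being the exception. How many of all genes were lower in the males was not counted, so this is not a trait of the calcium genes. For sex 0 of the 10 passed in the limma fit, beside 1.87% of all genes. The smallest unadjusted p was 0.0083, for Pvalb (log2 male minus female -0.40 ± 0.11, SE, adjusted p = 0.13), followed by 0.0089 for Calb1 (-0.36 ± 0.10, adjusted p = 0.14) and 0.024 for Atp2b4 (-0.39 ± 0.13, adjusted p = 0.22). Calb1 passed for sex with a trended robust prior (adjusted p = 0.043). With 1 male array per group these values rest on 2 male arrays. For the genotype by sex term 0 of the 10 passed, beside 0.00451% of all genes (1 gene); at an unadjusted p under 0.05 it was Trpv6 alone among the 10.

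Further genes of calcium and magnesium handling were counted in 6 lists, of which 75 of 82 genes were measured. Of the 75, 4 rose and 4 fell, 10.7% beside 7.2% of all genes, with a median log2 fold change of -0.05. The smallest adjusted p was that of S100a10, the partner of annexin A2 that binds TRPV5 and TRPV6. It stood at 9.99, 10.11 and 10.17 on dKO 1, 3 and 5 and at 9.54, 9.33 and 9.30 on controls 2, 4 and 6, a log2 fold change of 0.70 ± 0.09 (SE, adjusted p = 0.011) that passed in 6 of 6 fits with an array left out. Anxa2, annexin A2 itself, rose by 0.58 ± 0.09 (adjusted p = 0.016) but passed in 1 of those fits. Of 13 measured channel partners these 2 rose and 0 fell (median 0.04). The ubiquitin ligase Nedd4 (0.34 ± 0.08, adjusted p = 0.053) and the TRPV5-binding Bspry (-0.42 ± 0.10, adjusted p = 0.054) lay just outside the threshold.

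In the vitamin D and parathyroid hormone axis, 1 of 11 genes rose and 2 fell (median -0.09). Cyp24a1, which degrades active vitamin D, rose by 0.70 ± 0.15 (SE, adjusted p = 0.044) on the log2 scale, with 8.64, 8.97 and 9.40 on dKO 1, 3 and 5 and 8.74, 7.81 and 8.36 on controls 2, 4 and 6. Its groups overlapped through control 2. The parathyroid hormone receptor Pth1r fell by 0.58 (SE 0.12, adjusted p = 0.034) and Kl, klotho, the co-receptor for the phosphate-regulating hormone FGF23, by 0.46 (SE 0.08, adjusted p = 0.024), each without overlap. Cyp27b1, which makes active vitamin D, ranged from 6.45 to 7.04 on the arrays labelled dKO and from 5.56 to 7.40 on the controls and did not pass (adjusted p = 0.66). When arrays were dropped singly, Cyp24a1 passed in 1, Pth1r in 2 and Kl in 0 of 6 fits.

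Of 6 claudins that bear on paracellular cation passage, 1 fell and 0 rose (median -0.15). Cldn10 fell by 0.48 (SE 0.10, adjusted p = 0.039), with 8.97, 8.54 and 8.50 on dKO 1, 3 and 5 and 9.20, 9.25 and 9.01 on controls 2, 4 and 6, and passed in 2 of the 6 fits with an array left out. Cldn16 and Cldn19, the pair that forms the calcium and magnesium pathway of the thick limb, differed by 0.03 (adjusted p = 0.90) and 0.33 (adjusted p = 0.061). Of 10 distal magnesium genes 0 passed in the limma fit (5 at an unadjusted p under 0.05; median -0.16). The smallest p was that of Pcbd1 (-0.37 ± 0.09, adjusted p = 0.053). The magnesium channel Trpm6 differed by -0.07 ± 0.13 (adjusted p = 0.80).

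Among 15 measured paralogues of the members 1 fell and 0 rose (median -0.09). This was Trpv4, an osmotically and mechanically gated channel, at 7.57, 6.81 and 7.10 on dKO 1, 3 and 5 and 7.89, 8.01 and 7.78 on controls 2, 4 and 6 (-0.74 ± 0.13, SE, adjusted p = 0.024). So Trpv4 and Trpv6, of the same family, moved in opposite directions. Of 20 genes of calcium stores and organelles 1 rose and 0 fell (median 0.00). Itpr3, an inositol trisphosphate receptor that releases calcium from the endoplasmic reticulum, rose by 0.55 ± 0.08 (SE, adjusted p = 0.015). That is the brighter of its 2 clusters. With the clusters averaged, the limma difference was 0.34 ± 0.09 and did not pass (adjusted p = 0.067). Trpv4 and Itpr3 each passed in 2 of 6 fits with an array left out.

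**Figure D4:**
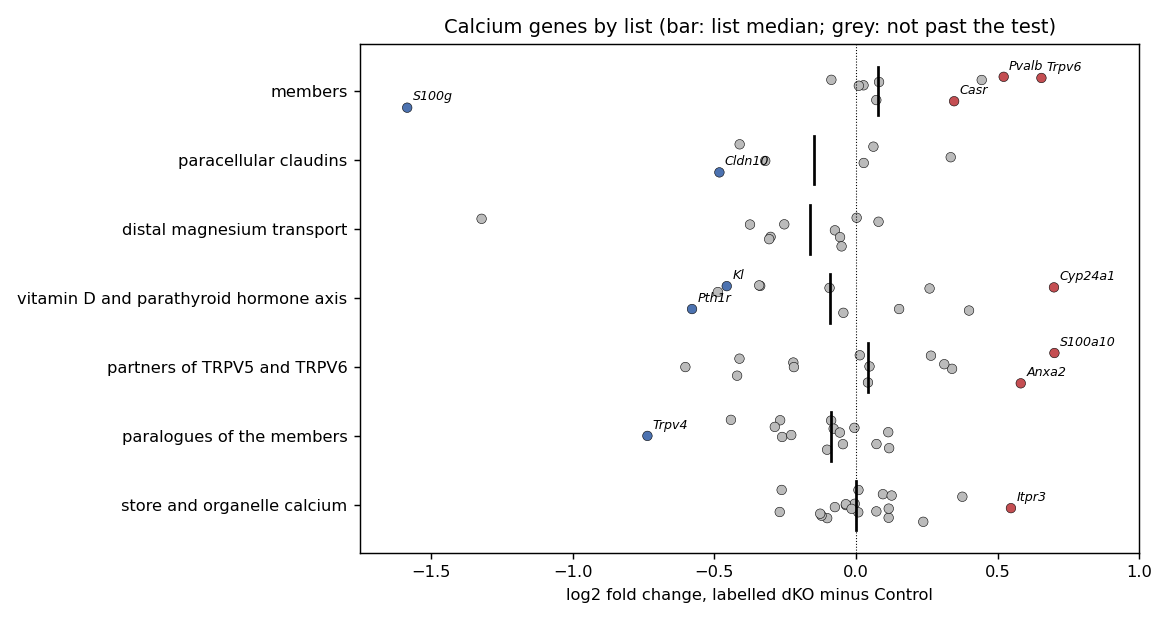
Log2 fold change (arrays labelled dKO minus controls) of the 10 calcium genes and of the measured genes in 6 further lists, 1 point per gene, with vertical scatter only to separate points. Black bars are list medians, red and blue points passed the test and carry their names; S100g at -1.58 is the lowest point, and the 4 rises outside the members are Cyp24a1, S100a10, Anxa2 and Itpr3.

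Markers of the segments that hold these genes were counted on the same arrays, where 4.12% of all genes rose and 3.08% fell past the test. In the distal convoluted and connecting tubule list of 17, Kl alone fell and 0 rose (median 0.00), and the mean of the list lay between 8.60 and 8.81 log2 on the arrays labelled dKO and between 8.55 and 8.90 on the controls. The thiazide-sensitive cotransporter Slc12a3, which marks the distal convoluted tubule, differed by 0.33 ± 0.09 (SE, adjusted p = 0.082), with overlap. The list's genes without overlap went the other way. In 5 of the 17 the arrays labelled dKO lay below all controls (10.8% of all genes), and in 0 above (11.7%). In the thick limb list of 9, Bsnd, barttin of the chloride channels (-0.79 ± 0.10, adjusted p = 0.010), and Cldn10 fell and 0 rose (median -0.25, list mean 9.16 to 9.31 against 9.28 to 9.52). That list was split: the arrays labelled dKO lay below all controls in 5 genes and above in 2, Umod and Cldn19, neither past the test. Of 8 proximal tubule genes 4 fell, Slc5a2, Slc5a12, Slc6a19 and Slc34a1, and 0 rose (median -0.41, list mean 9.47 to 10.17 against 10.71 to 10.80). In 7 of the 8 the arrays labelled dKO lay below all controls, and in 0 above. With any array left out Slc5a2 passed in 6 of 6 fits, Bsnd in 4, Slc6a19 in 4, Slc5a12 in 3 and Slc34a1 in 2.

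Markers of some other cells and states moved with the groups, and those of others did not. Of all genes 4.12% rose and 3.08% fell past the test. Of 9 macrophage genes 8 rose (list mean 6.79 to 7.44 log2 on the arrays labelled dKO against 5.88 to 6.02 on the controls), with Cd68 and C1qa at log2 fold changes of 1.27 and 1.44. Of 8 fibroblast and matrix genes 5 rose (7.35 to 7.83 against 6.37 to 6.90; Col1a1 1.56, Col1a2 0.94), of 9 tubular injury genes 8 rose (8.63 to 8.74 against 7.05 to 7.47; Lcn2 3.11, while Havcr1 at -0.60 did not pass), and of 5 cell cycle genes 5 rose (5.35 to 6.31 against 4.03 to 4.18; Mki67 2.46, Top2a 1.94). Of 6 smooth muscle genes, a tissue that also uses Slc8a1 and Atp2b4, 2 rose (6.88 to 7.16 against 6.33 to 7.02), while Acta2 (0.41) and Myh11 (-0.04) did not pass. Of 6 adipocyte genes 0 passed in the limma fit, also at an unadjusted p under 0.05 (4.62 to 5.44 against 4.43 to 6.38; Ucp1 -1.70, Cidea -0.78). The red blood cell list had 1 measured gene, Slc4a1, shared with intercalated cells, which fell by 2.58. The part of these cells and states in the calcium gene results was not tested.

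The 5 genes closest to S100g over the 6 arrays were searched among 16634 genes, leaving out those with a mean below the 25th percentile. Likeness was the root mean square difference between values after each gene's own mean was subtracted. They were Cox6a2, a muscle-type subunit of cytochrome c oxidase (0.11 log2), the ubiquitin ligase Rnf183 (0.18), Nccrp1 (0.18), the ammonia transporter Rhcg (0.19) and Nrip3 (0.20). Cox6a2 read 3.08, 3.53 and 3.22 on dKO 1, 3 and 5 and 5.07, 4.71 and 4.83 on controls 2, 4 and 6. On the arrays labelled dKO, Cox6a2 and Nrip3 (3.06, 2.97 and 2.78) lay near 2.98, the limit below which a gene's mean counted as dim. S100g read 9.67 or more there. In each of the 5 the arrays labelled dKO lay below the controls, which the choice by likeness to S100g fixes. The other calcium genes lay at 0.77 (Vdr) or more from S100g.

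**Figure D5:**
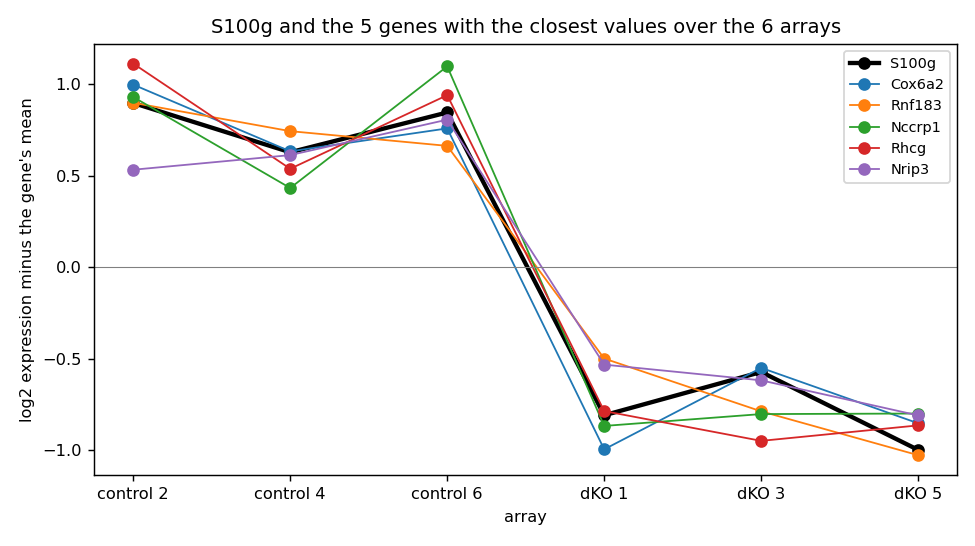
Log2 expression minus each gene's mean over the 6 arrays, for S100g (black) and the 5 genes closest to it; the horizontal axis lists the controls and then the arrays labelled dKO. All 6 profiles sit above 0 on the 3 controls and below 0 on the 3 arrays labelled dKO.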

How the data were processed

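Adult mouse kidney RNA was measured on 6 arrays from 400 ng of RNA each. The deposited table holds log2 expression values for 41345 transcript clusters; RMA, limma and R 3.4.0 are named without roles in the submitters' processing notes, and no source used here gives a filter or genome build. The authors' log2 values were used as deposited. The platform annotation gave 1 symbol for 23521 clusters, several for 1814 and none for 16010; the last 2 classes were left out. RefSeq identifiers matched 23328 clusters and changed 0 symbols. The cluster with the highest mean stood for each gene, leaving 22180. Differences were fitted with limma 3.58.1 in R 4.3.3 (genotype and sex, default moderation, 3 residual and 6.72 total degrees of freedom) with Benjamini-Hochberg adjustment over all genes, a threshold of 0.05 and moderated standard errors. The genotype by sex model had 2 residual degrees of freedom. The fit was tested on simulated data. Dim genes were those with a mean below the 25th percentile, 2.98 log2.

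The members and the 17 other lists were chosen with earlier results of these data known. The text names all members, list genes that passed or had the smallest p, the first 2 measured marker genes of each other cell type, and the 5 genes nearest S100g; other named genes were chosen after their values were seen (in the channel partners, Nedd4 and Bspry; Cldn16, Cldn19, Trpm6, Cyp27b1, Slc12a3, Umod). Alternatives dropped sex from the model, used females alone, left out each array, averaged clusters, tested every row, removed dim genes, centred arrays on their medians or normalized them by quantiles, weighted arrays, or let the prior follow a robust trend; leaving out controls 2 and 6 together, with and without the sex term, was added after seeing the data. Promoter sequences come from RefSeq, GRCm38.p6. The 6 arrays limit the precision.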

Additional observations from a re-analysis of the deposited data

How the results depend on the processing

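S100g stayed lower and past the threshold in 15 of 15 alternatives (log2 -1.68 to -1.44, limma adjusted p up to 0.026). The 2 fits without controls 2 and 6, which leave 1 control, are not among the 15. There S100g was lower (log2 -1.44 with the sex term, -1.42 without) but not past the threshold. Of the 15 alternatives, Trpv6 passed in 9, Pvalb in 7 and Casr in 5, all with the same sign. These alternatives are not separate checks. Females alone and the fits without dKO 1 or control 4 are the same fit. Dropping sex, the trended prior, removing dim genes, averaging clusters and testing every row leave the members' log2 fold changes unchanged, so there the sign could not turn. Of all genes, 913 were higher and 683 lower; without sex in the model it was 304 and 167, with every row tested 155 and 84, and after median centring, which moved the median of all genes to -0.08, 713 and 1194, so that 37.4% of calls were higher in place of 57.2%. With single arrays left out the counts ran from 218 to 675 and from 126 to 574, lowest without control 2. The 3 calcium members called higher became 0 without sex or with every row tested (4 at an unadjusted p under 0.05 in each, by limma), 1 in the females alone and 0 to 1 with an array left out; 1 was called lower in each of those fits. The pathway lists had 4 called higher and 4 lower: 1 and 0 without sex (21 lower at an unadjusted p under 0.05), 0 and 0 with every row tested (9 and 20 likewise), 8 and 13 with the trended prior, 7 lower with array weights, 12 lower after median centring, and 1 to 3 and 0 to 4 with an array left out. Without controls 2 and 6 all these counts were 0, with or without the sex term. The log2 differences of uncalled members turned sign for Calb1 (-0.0473 after median centring, -0.0917 for dKO 1 minus control 4, the value left without controls 2 and 6 when sex is in the model, and -0.0442 to 0.0853 with an array left out, negative without dKO 5 or control 6), Slc8a1 (-0.0637, -0.276, and -0.131 to 0.153 likewise), Atp2b1 (-0.0021 after median centring) and Atp2b4 (-0.0153 to 0.181 with an array left out, negative without dKO 5 or control 6). The cause was not tested. No paired analysis was possible because the groups share no replicate numbers.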
